A study of Mus musculus with 2 samples.

Results

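Cultured costal cartilage-derived stem cells (CDSCs) with a high level of S phase transcripts were examined in 1 single-cell RNA library of mouse cells. The cells were selected on measured values. Of the 10798 barcodes of the cultured library, 4543 held at least 500 genes, at least 5000 UMIs (unique molecular identifiers, which count captured transcripts) and at most 10% mitochondrial UMIs. A limit was then set on G2/M transcripts: 532 cells with 0.1% or more of their UMIs in Top2a, Mki67, Cenpf, Cenpe, Ube2c, Hmmr, Nusap1 and Tpx2, which act in chromosome condensation, spindle function and mitotic exit, were set aside as over-limit cells. The remaining 4011 eligible cells were ranked by an S score, the share of a cell's UMIs in Mcm3, Mcm5, Mcm6, Ccne2, Cdc6, Dtl, Hells, Uhrf1 and Clspn. The top 10%, 401 cells of 22694 barcodes in the whole series, are called S-score cells here, and they were compared with the other 3610 eligible cells.

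The study compared primary and cultured CDSCs, with 1 library of each. Both derived from CD45- CD51+ cells sorted after collagenase II digestion of neonatal costal cartilage from C57BL/6J mice, CD45.1 or ZsGreen, whereas the tissue field of the labels reads bone marrow. The cultured cells had been passaged every 5 days in minimum essential medium with serum and were taken at passage 2 to 3. Neither the number of animals nor the strain behind each library was given in the labels. The libraries shared 32 barcodes, 1 of them carried by an S-score cell. Cells of 1 library are not replicates, so no test was run and no p-value is given, and every interval (95%) covers counting error only.

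A dividing cell copies its DNA once, in S phase. In G1, the ORC proteins, Cdc6 and Cdt1 load the MCM2-7 helicase at origins. Rb-type repressors then release the E2F transcription factors, which turn on genes for helicase loading, the replication fork, deoxynucleotide synthesis and cyclin E. Histone genes are switched on while DNA is copied, and the mitotic genes follow in G2. CDK inhibitors such as p21, the product of Cdkn1a, hold a cell before this entry. Expanded stromal cells are a mixture of cells at all of these points.

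E2F binds short GC-rich words next to a run of T close to gene starts, and several genes of the S score are well-known E2F targets. The words TTTGGCGC, TTTCCCGC, TTTGCCGC and TTTCGCGC were searched for on both strands in RefSeq promoter windows of GRCm38.p6, each 250 bases before to 50 bases after a gene start. Words can overlap on opposite strands. Of all 27025 genes with a window, 2.60% held at least 1 of the 4 words. All 8 score genes with a window held one, and Ccne2 had no window. In Mcm3 and Clspn the words lay after the start. For the other 6, the 30 bases around the word farthest from the start are shown 5′ to 3′, with the words in capitals, because these are the promoters of the genes that define the cells.
Mcm5 (chr8:75109345-75109374, plus strand): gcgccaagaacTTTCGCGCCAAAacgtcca
Mcm6 (chr1:128359797-128359826, minus strand): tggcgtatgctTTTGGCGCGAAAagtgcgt
Cdc6 (chr11:98908002-98908031, plus strand): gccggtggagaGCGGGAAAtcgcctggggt
Dtl (chr1:191575545-191575574, minus strand): caatcagaaagcgtgacgtcagTTTGGCGC
Hells (chr19:38930917-38930946, plus strand): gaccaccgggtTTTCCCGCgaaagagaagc
Uhrf1 (chr17:56304117-56304146, plus strand): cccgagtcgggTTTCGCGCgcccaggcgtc
In Mcm5 and Mcm6, 2 words overlapped on opposite strands. Among the 6746 genes with a window that were compared between the cell groups below, 4.67% held a word. A word was held by 17.4% of the 241 genes with a ratio of 1.5-fold or more in favour of the S-score cells and 1.90% of the 105 with such a ratio in favour of the others, and the median GC content of the windows was 62.3% and 60.3%, beside 62.0% for all compared genes. The 241 include genes, Pola1 among them, that passed the level filter described below only through the S-score cells. The share without them was not computed. A word is a match of letters, not evidence of binding.

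Scaled to counts per 1000000 UMIs (CPM), the S score ranged from 134 to 2141 in the selected cells, with a median of 338. In the other eligible cells it ran from 0 to 134 with a median of 23.4, and 859 of them (23.8%) held no UMI of the 9 genes. The last cells inside the cutoff had scores of 137.2, 135.6 and 134.5 CPM, from 16, 12 and 20 UMIs. The next cells outside had 134.2, 134.1 and 133.6, from 3, 1 and 9 UMIs. The score was therefore a continuous range with no gap at the cutoff: 108 S-score cells (26.9%) lay below 200 CPM, and 161 other cells lay at 100 or above.

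**Figure D1:**
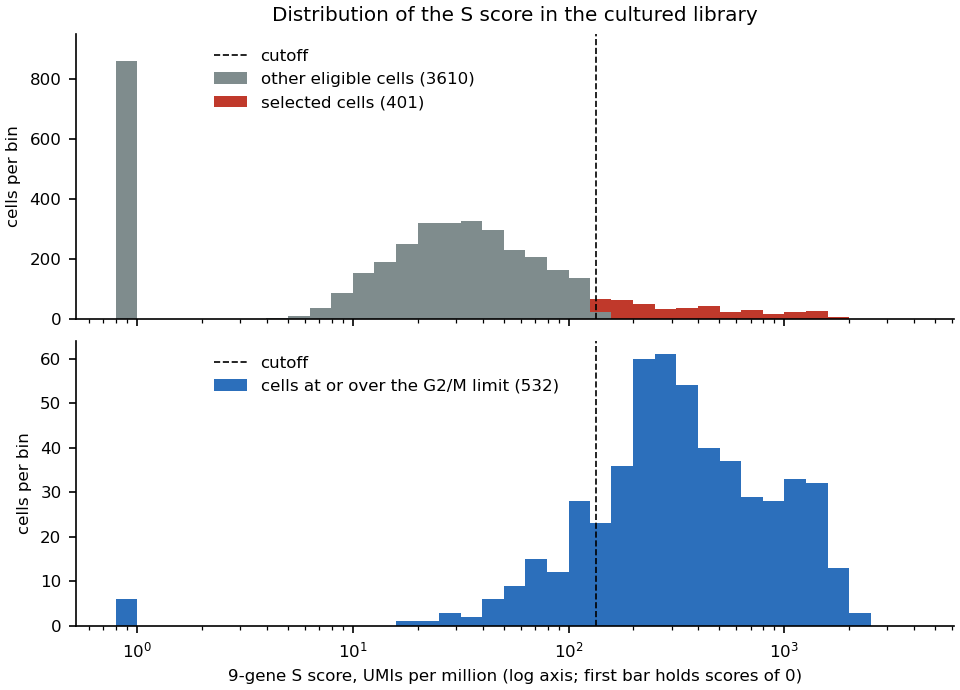
Number of cells per bin (vertical axis) by 9-gene S score in CPM (horizontal log axis, with cells at 0 drawn in the first bar), for eligible cells above and over-limit cells below; the dashed line is the cutoff at 134 CPM. The 401 selected cells form the right tail of the eligible cells without a gap, and most over-limit cells lie to the right of the cutoff as well.

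The number of score genes per cell varied widely among the S-score cells. It was counted at full depth, from 5002 to 210400 UMIs per cell, so shallow cells can show few of the genes. All 9 genes were detected in 120 S-score cells (29.9%) and at least 5 in 287 (71.6%), whereas 15 (3.74%) entered on 1 gene alone. Median depth was 64298 UMIs in the S-score cells and 66234 in the others, with medians of 7664 and 7741 genes and 2.29% and 2.38% mitochondrial UMIs. Depth still bore on the selection. With the eligible cells cut into 4 equal groups by depth, 13.6% (11.5 to 15.8) of the shallowest group were S-score cells, against 7.49%, 7.88% and 11.1% of the deeper groups. The 8.64% of filtered cells with the highest doublet scores included 64 S-score cells (16%) and 7.53% of the other cells. The part of depth and doublets in the results was not tested.

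The limit on G2/M genes removed many cells with S transcripts. Of the 532 over-limit cells, 444 (83.5%, 80.0 to 86.5) also had a score at or above the cutoff, and their 9 genes summed to 487 CPM over the pooled UMIs of the group, against 513 in the S-score cells and 30.4 in the others. The S-score cells are thus those in which S transcripts were high while mitotic transcripts were still below the limit. Their own sum of the 8 limit genes was 340.0 CPM, above the 56.4 of the other cells and below the 2871 of the over-limit cells. The limit itself fixed the order of S-score and over-limit cells in these genes.

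The 9 score genes chose the cells, so their levels are given as a description. Clspn, which encodes the checkpoint adaptor claspin, stood at 83.3 CPM in the S-score cells and 1.98 in the others. Cdc6, the helicase loader, stood at 17.4 and 0.470 CPM. Mcm6, a helicase subunit, had the smallest ratio, with 72.8 and 8.26 CPM, and carried 27.1% of the few score UMIs of the other cells. Hells, a chromatin remodeller, contributed the most UMIs, 2552 of the 13988 in the S-score cells (18.2%), followed by Clspn (16.2%) and Mcm3 (15.7%), so no single gene carried the score.

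Genes outside the score were compared where the pooled level over all eligible cells was at least 10 CPM. Of 8384 such genes, 303 (3.61%) stood at least 1.5-fold higher in the S-score cells, 5 of the limit genes among them, and 132 (1.57%) stood 1.5-fold or more below the other cells. The median log2 ratio was -0.075. With ratios centred on that median, the counts were 397 and 82. A 2-fold difference was reached by 118 genes on the higher and 7 on the lower side. Some of the higher genes passed the filter only through their level in the S-score cells, and with the filter set on the other cells alone the counts were 266 and 132. Compared genes given below with less than 10 CPM in the other cells are of this kind. When cells were scored after thinning each to 5000 UMIs, 207 genes were 1.5-fold higher, 203 of them among the 303, and 30 were 1.5-fold lower, 18 of them among the 132.

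**Figure D2:**
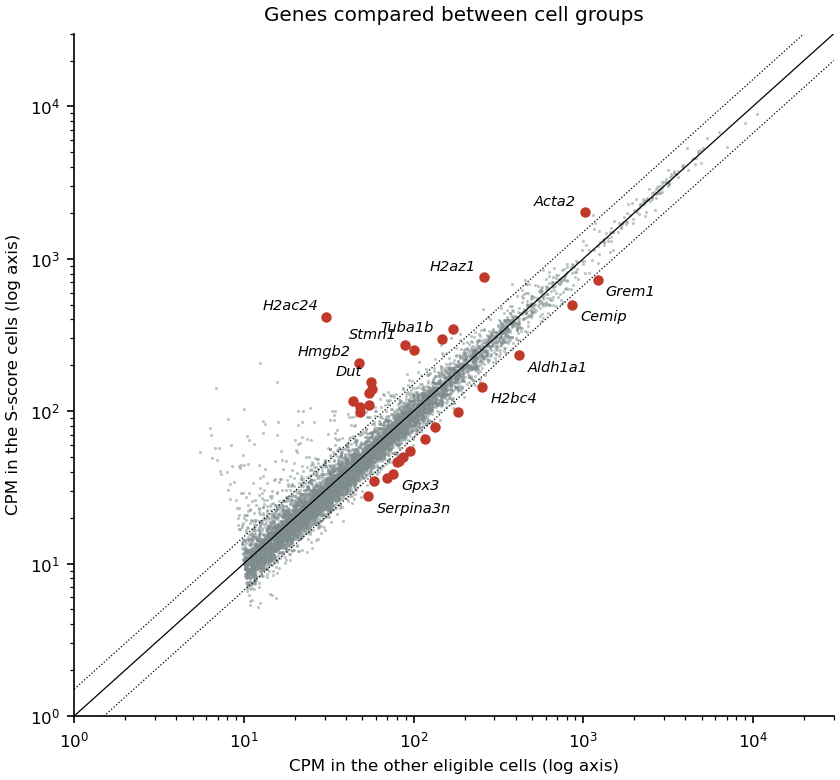
Level of each of the 8384 compared genes in CPM in the other eligible cells (horizontal log axis) and in the S-score cells (vertical log axis), with the diagonal of equal levels solid, 1.5-fold lines dotted, and the 15 highest and 15 lowest genes of at least 50 CPM in red. Points depart from the diagonal much farther on the upper side, with H2ac24 at 418 against 30.6 CPM, than on the lower side, with Serpina3n at 27.7 against 54.2 CPM.

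The 15 highest genes with at least 50 CPM were led by genes of chromatin and the cytoskeleton. H2ac24, a replication-dependent H2A gene at chr13:21833026-21833507 on the minus strand (GRCm38, as all gene positions here), stood at 418 CPM (411 to 426) against 30.6, a log2 ratio of 3.77. Hmgb2, a DNA-bending chromatin protein, stood at 208 against 47.8 CPM. Stmn1, a microtubule destabiliser, stood at 272 against 89.3 CPM. The list went on with H2az1, Dut, Tmpo, Dek, Cks1b, Smc4, Cnn1, Psip1, Ranbp1, Tuba1b and Rfc1 and closed with Acta2 at 2019 against 1019 CPM. Of these 15, Cnn1 and Acta2 belong to the contractile apparatus and are described further on.

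Genes of origin licensing and helicase activation were higher in the S-score cells. Of the 10 compared, 8 reached 1.5-fold and none was 1.5-fold lower, with a median log2 ratio of 1.54. With the filter on the other cells alone it was 7 of 9, with a median of 1.44. Mcm4, a helicase subunit that was not part of the score, stood at 68.9 CPM (65.9 to 72.1) against 10.4 (10.0 to 10.8), a 6.63-fold difference. Gins2, a subunit of the GINS complex of the active helicase, stood at 43.6 against 9.40 CPM. Topbp1, needed to assemble that complex, stood at 84.5 against 21.9 CPM, and Mcm7 at 55.0 against 16.5 CPM.

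Within the origin recognition complex the subunits parted. Orc6 stood at 87.7 against 32.3 CPM and Orc2 at 48.9 against 27.4 CPM. Orc4 and Orc3 were close to level, with log2 ratios of -0.15 and -0.17. Orc1, under the level filter, stood at 15.3 against 2.28 CPM. Of the other genes under the filter, the loading factor Cdt1 stood at 25 against 4.12 CPM and its inhibitor Gmnn at 52.4 against 4.88 CPM, and Mcm2, Mcm10 and Cdc45 had log2 ratios of 2.93, 3.86 and 3.33. Orc5 was close to level at 8.48 against 7.58 CPM. Over all 23 genes at any level, 21 were above 0 on the log2 scale.

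At the replication fork, 16 of 18 compared genes were at least 1.5-fold higher and none lower, with a median log2 ratio of 1.52. With the filter on the other cells alone it was 12 of 14, with a median of 1.24. Pclaf, a PCNA-binding factor at chr9:65890237-65903266, had the largest ratio, with 208 CPM (202 to 213) against 12.5 (12.1 to 13). The catalytic subunit of the priming polymerase, Pola1, stood at 77.3 against 6.33 CPM, and Lig1, which seals Okazaki fragments, at 57.4 against 6.77 CPM. Pcna, the sliding clamp, stood at 101 CPM (97.2 to 105) against 20.8 (20.2 to 21.4), a 4.86-fold difference. With every cell thinned to 5000 UMIs, 32.4% of S-score cells (27.9 to 37.2) and 10.1% of other cells (9.17 to 11.2) held a Pcna UMI, and 41.9% and 4.63% held a Pclaf UMI. The clamp loader subunits Rfc4, Rfc3, Rfc2 and Rfc1 followed, with log2 ratios of 1.90, 1.87, 1.43 and 1.00. The smallest ratios belonged to Supt16, a histone chaperone subunit (0.51), and Pole4, an accessory subunit of polymerase epsilon (0.54). Those 2 genes were already above 50 CPM in the other cells, the former at 96.6 and the latter at 52.2 CPM. Among fork genes under the filter, Pole, the catalytic subunit of polymerase epsilon, stood at 24.9 against 1.6 CPM and Timeless, which protects the fork, at 16.4 against 1.10 CPM. All 33 fork genes were above 0.

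Sites from the promoters of Pola1, Mcm7 and Topbp1, which were not used for the selection, are shown for comparison with those of the score genes. Other compared licensing and fork genes with a word before the start, Orc3, Ssrp1, Rfc3 and Pole4 among them, are not shown.
Pola1 (chrX:93632275-93632304, minus strand): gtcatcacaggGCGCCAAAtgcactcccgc
Mcm7 (chr5:138172030-138172059, minus strand): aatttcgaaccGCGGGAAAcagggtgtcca
Topbp1 (chr9:103305187-103305216, plus strand): ccgctcggttgGCGCGAAAgtcggttcccg
A word was present in 6 of 14 compared fork genes with a window and in 3 of 7 licensing genes. Among these were Orc3, which was close to level between the groups, and Pole4, which did not reach 1.5-fold. These counts keep genes that passed the level filter only through the S-score cells, such as Pola1. In nucleotide synthesis a word was present in 1 of 18 (5.56%), and in the genes of G2 and mitosis in 1 of 10 (10.0%). Among all compared genes with a window the share was 4.67%. Most compared genes of both lists were higher in the S-score cells. Of the 9 compared histone genes with a window, 0 held a word.

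Genes of nucleotide synthesis were higher to unequal degrees. Of 19 compared genes, 12 were at least 1.5-fold higher and none lower, with a median log2 ratio of 0.76. With the filter on the other cells alone, which leaves out Rrm2, it was 11 of 18, with a median of 0.74. The widest ratios were those of genes that make deoxynucleotides. Rrm2, the S phase subunit of ribonucleotide reductase, stood at 57.5 CPM (54.7 to 60.5) against 7.09 (6.77 to 7.42), and its partner Rrm1 at 72.3 against 13 CPM. Tyms, which makes thymidylate, stood at 64.3 against 20 CPM, and Dut, which clears dUTP, at 155 against 55.8 CPM. Under the filter, thymidine kinase Tk1 stood at 35.9 against 3.0 CPM.

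Genes that supply ribonucleotides as well had smaller ratios. Umps of pyrimidine synthesis and Ppat and Gart of purine synthesis still reached 1.5-fold, with log2 ratios of 1.24, 0.92 and 0.68. The others did not: Paics and Atic of the purine pathway had log2 ratios of 0.39 and 0.51, Impdh2 of guanine nucleotide synthesis had 0.38, and Ctps of CTP synthesis had 0.30. Rrm2b, the reductase subunit known as a p53 target and used outside S phase, was close to level at 17.3 against 19.7 CPM.

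Of the G1/S regulators, few reached the fold set. Of 15 compared, 4 did so and none was 1.5-fold lower, with a median log2 ratio of 0.23. With the filter on the other cells alone, which leaves out Ccne1, it was 3 of 14, with a median of 0.22. Ccne1, cyclin E1, which was not part of the score although its paralogue Ccne2 was, stood at 40.2 CPM (37.8 to 42.6) against 7.26 (6.94 to 7.60). E2f1 stood at 37.6 against 13 CPM, the CDK-activating phosphatase Cdc25a at 29.2 against 10.7 CPM, and the E2F partner Tfdp1 at 65.6 against 36.3 CPM. The D cyclins, which act earlier in G1, showed no common direction: Ccnd1 was at 462 against 357 CPM, Ccnd3 at 89.5 against 77.3 CPM and Ccnd2 at 806 against 1082 CPM. Rb1 was level, with a log2 ratio of 0.04 (-0.06 to 0.13), and Rbl2, the p130 repressor of quiescent cells, was at 11.4 against 16.8 CPM. The late E2F repressors E2f8 and E2f7, under the filter, stood at 17 against 0.786 and 24.9 against 1.55 CPM.

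**Figure D3:**
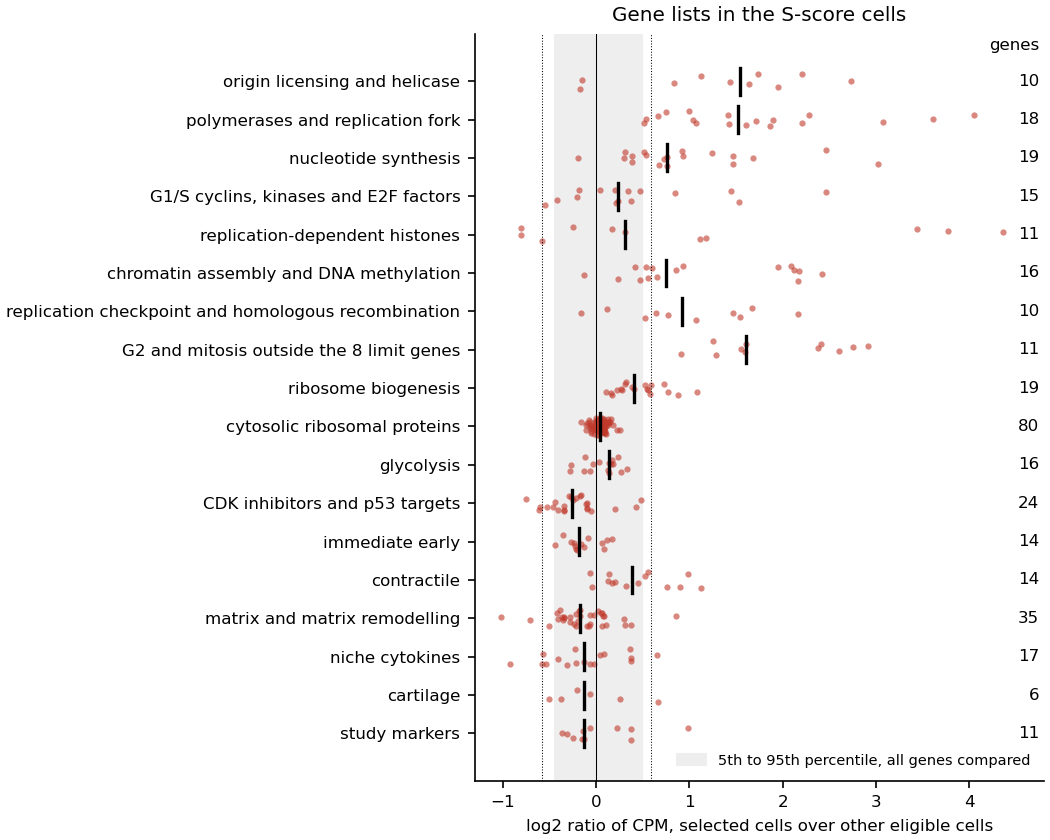
Log2 ratio of CPM in the S-score cells over the other eligible cells (horizontal axis) for every compared gene of 18 lists (rows, number of genes at the right); points are genes, black bars the medians, dotted lines 1.5-fold, and the grey band the 5th to 95th percentile of all 8384 genes. The licensing and fork lists have medians of 1.54 and 1.52 and the G2 and mitosis list 1.61. The CDK inhibitor and p53 list has -0.26 and the 80 ribosomal protein genes cluster at 0.04. With the level filter on the other cells alone, the licensing, fork and G2 and mitosis medians were 1.44, 1.24 and 1.61.

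Histone genes split unevenly, with most higher in the S-score cells and a few lower. The library was primed on poly(A) tails, which most replication-dependent histone transcripts lack, so the counts come from the polyadenylated part, and reads shared by near-identical gene copies may have been assigned unevenly. Of 66 replication-dependent histone genes, 62 had a ratio at any level, and 55 of these were above 0 on the log2 scale. Only 11 of the 66 passed the level filter. Of those 11, 5 were 1.5-fold or more higher and 2 were 1.5-fold or more lower, with a median log2 ratio of 0.31. With the filter on the other cells alone it was 3 and 2 of 9, with a median of 0.17. The linker histone H1f5, at chr13:21779883-21780625, stood at 141 CPM (136 to 145) against 6.85 (6.54 to 7.18), a 20.6-fold difference. The H2A gene H2ac8 stood at 69.3 against 6.4 CPM, H1f4 at 70.5 against 31.2 CPM, and the H4 gene H4c4 at 50 against 23.1 CPM.

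The opposite direction was seen in H2bc4 and H2ac25. H2bc4, an H2B gene at chr13:23684199-23692908, stood at 145 CPM (140.4 to 149) against 253 (251 to 255), and was lower still in the over-limit cells, at 78.8 CPM. H2ac25 stood at 9.32 against 16.2 CPM. H1f2 was at 43.6 against 65.2 CPM, a ratio just short of 1.5-fold. Because the list mixes both kinds, its summed level did not show the split: in 10 bins of eligible cells by score it was 592 CPM in bin 1, 440.2 in bin 8 and 1235 in the S-score cells of bin 10. Of the histone variants not listed as replication-dependent, H2az1 stood at 755 against 260.4 CPM and H2ax at 75 against 35.4 CPM. H3f3a and H3f3b were close to level, at log2 ratios of 0.08 and -0.07.

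Chromatin assembly and DNA methylation genes were higher in 10 of 16 compared, with a median log2 ratio of 0.75. Lmnb1, a nuclear lamina protein that is scarce in arrested cells, stood at 84.8 against 15.9 CPM. Dnmt1, which copies DNA methylation onto new strands, stood at 101 against 22.2 CPM, and Hat1, which acetylates new H4, at 70.1 against 15.7 CPM. Dnmt3a, which sets methylation de novo, was at 22.5 against 24.5 CPM. The maintenance and the de novo enzyme thus stood apart in ratio, 2.18 against -0.13 on the log2 scale.

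Replication checkpoint and homologous recombination genes were mostly low in level. Of 35 in the list, 10 were compared and 7 of them were at least 1.5-fold higher, with a median log2 ratio of 0.92. Only 6 of the 10 reached 10 CPM in the other cells, 3 of them 1.5-fold higher, with a median of 0.58. Rad18, which acts at stalled forks, stood at 42.5 against 9.44 CPM, Wee1, the kinase that holds CDK1 inactive, at 26.5 against 8.33 CPM, and Rad17 was at 23.2 against 25.8 CPM. Most compared genes of cohesin loading and establishment were close to level, with 2 of 11 (Smc3 and Smc1a) at least 1.5-fold higher and a median of 0.12. Under the filter, Esco2 stood at 16.5 against 0.455 CPM and Cdca5 at 6.38 against 0.547 CPM. Over all 13 genes at any level, 8 were above 0.

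Genes of G2 and mitosis were higher too, in spite of the limit on 8 of their kind. All 11 compared genes outside those 8 were at least 1.5-fold higher, with a median log2 ratio of 1.61, and so were all 7 that reached 10 CPM in the other cells. Prc1, a spindle midzone protein, stood at 49.2 against 6.50 CPM, Birc5, survivin, at 81.8 against 13.4 CPM, and Cdk1 at 60.7 against 11.4 CPM. The over-limit cells were far higher in the same genes, with 398, 394 and 221 CPM. The whole list summed to 1080.4 CPM in the S-score cells, 273 in the others and 4819.9 in the over-limit cells. The limit on 8 genes of this kind divides the S-score from the over-limit cells, so their order in this list follows from the selection.

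Against the over-limit cells, none of the compared licensing or fork genes was 1.5-fold higher in the S-score cells, while 2 of 10 and 4 of 18 were 1.5-fold lower. The median log2 ratios were -0.23 and -0.22, beside -2.18 for the G2 and mitosis list. The direction of the last value follows from the limit on genes of that kind. Mcm4 was at 68.9 CPM in the S-score cells and 68.0 in the over-limit cells, Ccne1 at 40.2 and 38.8, and Slbp, the binding protein of histone mRNA ends, at 85.5 and 79.7. Cdc6, a score gene, was at 17.4 and 8.66 CPM. Pclaf and Rrm2 were higher in the over-limit cells, at 445 and 115 CPM.

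The S-score cells themselves formed a gradient. They were sorted by their UMI share in the 8 limit genes and cut into 3 groups of 134, 134 and 133 cells, with shares up to 78.7, up to 349.9 and up to 994 CPM. Median depth differed along this order, at 42182, 68189.5 and 80513 UMIs. The S score differed too. Every score gene was higher in the highest than in the lowest group, with log2 ratios from 0.58 (Dtl) to 2.47 (Clspn). The lowest group thus also held weaker scores, and the parts of depth and score were not tested. Over the 10 compared licensing genes, the log2 ratio of the highest to the lowest group had a median of 0.65 and ran from 0.04 to 1.76. Mcm4 was at 54.3, 70.3 and 78.1 CPM, and Orc4 at 34.3, 35.0 and 35.3 CPM. Dbf4, the activator of the kinase that fires origins, was at 18.9, 34.5 and 63.9 CPM. Gmnn, the inhibitor of Cdt1, was at 18.6, 48.6 and 79.1 CPM while Cdt1 was at 18.6, 27.4 and 27.5 CPM. Ccne2 was at 9.37, 27 and 31 CPM, with most of the difference between the lowest and the middle group.

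Fork genes had a median of 0.93 on the same scale (18 genes, 0.28 to 3.70) and replication-dependent histone genes 1.58 (11 genes, -0.42 to 4.23). H2ac24 was at 45.4, 208 and 852 CPM, and H1f5 at 17.3, 58.5 and 295 CPM. Pclaf was at 29.6, 144 and 385 CPM, and Rrm2 at 16, 46.2 and 96 CPM. The replication-dependent histone list summed to 402, 702 and 2254 CPM. The histone genes that were lower in the S-score cells as a whole followed little or not at all: H2bc4 was at 144, 146 and 145 CPM, H2ac25 at 11.2, 8.80 and 8.41 CPM, and H1f2 at 36 CPM in the lowest and 49.7 in the highest group. In the group lowest in limit genes, H2ac24 (45.4 against 30.6 CPM) and H1f5 (17.3 against 6.85 CPM) were above the other eligible cells by much less than in the S-score cells as a whole. Genes that ran the other way included Vcl, a focal adhesion protein, at 464, 371 and 306 CPM, Rbl2 at 14, 12.5 and 8.78 CPM, and Myc at 28.1, 24 and 18 CPM.

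**Figure D4:**
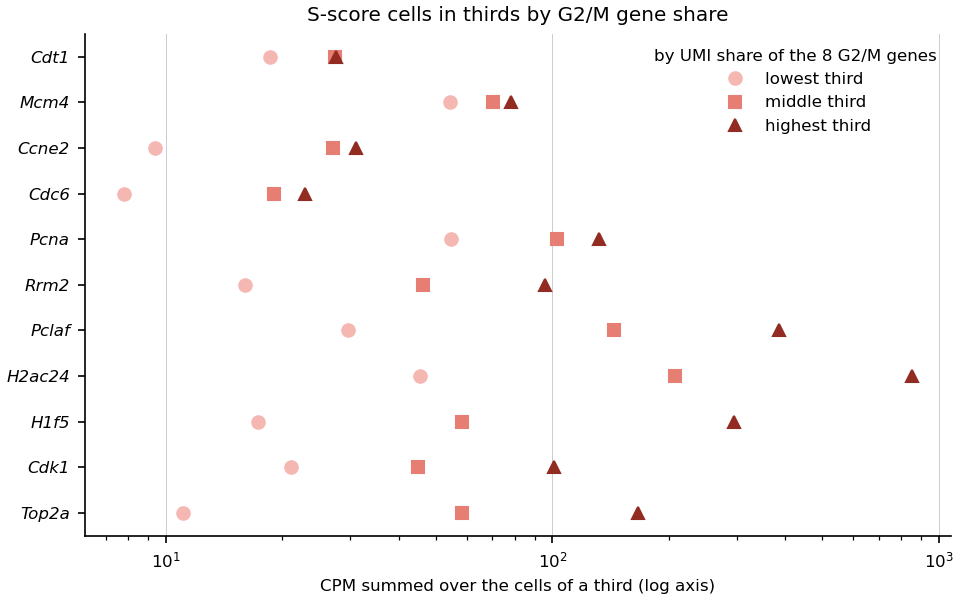
Summed level in CPM (horizontal log axis) of 11 genes (rows) in the S-score cells divided into 3 groups by their UMI share of the 8 G2/M genes (circles lowest, squares middle, triangles highest share; the share itself includes Top2a). Cdt1 and Mcm4 span 18.6 to 27.5 and 54.3 to 78.1 CPM, while H2ac24 spans 45.4 to 852 CPM and Pclaf 29.6 to 385 CPM.

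CDK inhibitors and p53 target genes leaned lower. Of 24 compared, none was at least 1.5-fold higher and 3 were at least 1.5-fold lower, and 3 were above 0, with a median log2 ratio of -0.26 beside -0.075 over all genes. Cdkn1a, p21, stood at 498 CPM (489 to 506) against 660.5 (657 to 664). Cdkn2b, p15, stood at 46.2 against 70.7 CPM, Ccng2, a cyclin G of quiescent cells, at 7.67 against 11.6 CPM, and the p53 target Trp53inp1 at 34.9 against 58.7 CPM. Cdkn1b, p27, was at 44.8 against 52.3 CPM, Cdkn2a, the p16 and p19ARF gene, at 89.2 against 96.0 CPM, and Cdkn1c, p57, at 30.8 against 33.1 CPM. The differences of this group were small beside those of the replication genes. With scores from 5000 UMIs per cell none of the 24 was 1.5-fold lower, and the log2 ratio of Cdkn1a was -0.28.

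Levels were also followed over the score. The eligible cells were put in 10 bins by score, of which bins 1 and 2 held only cells with a score of 0. Median depth differed between bins, from 35670 UMIs in bin 2 and 94395 in bin 3 to 49655 in bin 9 and 64298 in bin 10, and its part was not tested. Fork genes summed to 514 CPM in bin 1, 501 in bin 3, 585 in bin 7, 635 in bin 8, 750.2 in bin 9 and 1713 in the S-score cells of bin 10. Ccne1 was between 6.22 and 8.35 CPM in bins 1 to 9 and at 40.2 in bin 10. Lig1 was at 9.04, 13.7 and 57.4 CPM in bins 8 to 10. For these replication genes the step from bin 9 to bin 10 was wider than any between lower bins. The bins were equal in cells, not in score: bin 9 ran from 71.9 to 134 CPM and bin 10 from 134 to 2141. The wider step therefore does not show a jump at the cutoff.

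The CDK inhibitor and p53 list summed to 3576 CPM in bin 3, 3294 in bin 7, 2969 in bin 9 and 2842 in bin 10. Within it, Cdkn1a was at 672 CPM in bin 6, 605 in bin 7, 521 in bin 8, 492 in bin 9 and 498 in bin 10. A pair of lower genes, picked after their values were seen, had similar courses. Grem1, a secreted BMP antagonist, was at 1222, 1030.2, 889 and 729.7 CPM in bins 7 to 10. Klf9, a transcription factor, was at 226, 207, 174 and 148 CPM over the same bins. For Cdkn1a, Grem1 and Klf9, lower levels were thus also found in bins that were not selected.

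**Figure D5:**
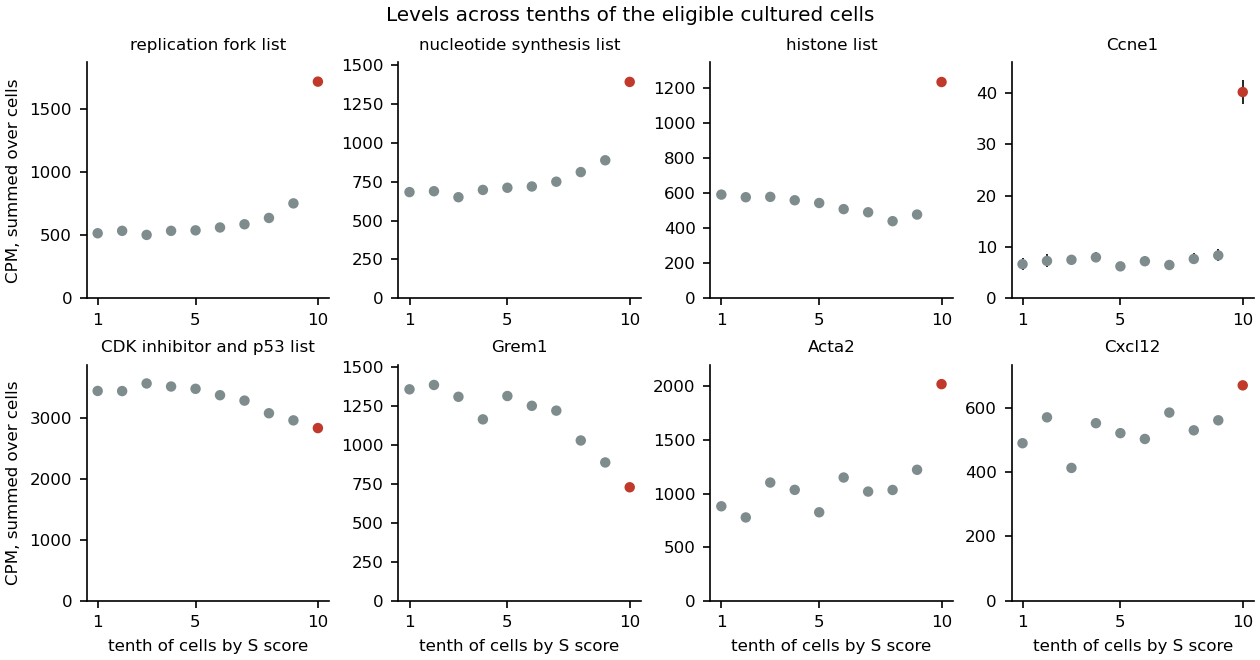
Summed CPM (vertical axes, from 0) in 10 bins of eligible cells by S score (horizontal axes; red, the S-score cells) for 3 gene lists, the CDK inhibitor and p53 list and 4 genes; bars are 95% Poisson intervals, mostly hidden by the points. The fork list goes from 501 CPM in bin 3 to 750.2 in bin 9 and 1713 in bin 10, Ccne1 from 8.35 CPM in bin 9 to 40.2, and the CDK inhibitor list from 3576 CPM in bin 3 to 2842.

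The 15 lowest genes with at least 50 CPM included secreted and intracellular proteins. Serpina3n, a serine protease inhibitor, stood at 27.7 against 54.2 CPM, Gpx3, a secreted glutathione peroxidase, at 39.0 against 76.0 CPM, and Cp, ceruloplasmin, at 98.5 against 184 CPM. Aldh1a1, which makes retinoic acid, stood at 233 against 420.2 CPM, Cemip, a hyaluronan-degrading factor, at 501 against 864 CPM, and Grem1 at 729.7 against 1215 CPM. The others included Crebrf, Kdm5b, H2bc4, Fhit, Saa3, Rin2, Sesn3 and Trp53inp1. Each of the 15 differed by less than 2-fold, and with scores from 5000 UMIs per cell Serpina3n had a log2 ratio of -0.23 in place of -0.97.

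Some contractile genes were higher in the S-score cells. Of 14 compared, 4 reached 1.5-fold and none was 1.5-fold lower, with a median log2 ratio of 0.39. Cnn1, calponin, stood at 106 CPM (102 to 110.0) against 48.3 (47.5 to 49.2). Acta2, smooth muscle actin, stood at 2019 (2003 to 2036) against 1019 (1015 to 1023), Myl9, a myosin light chain, at 272 against 146 CPM, and Tagln at 1934 against 1144 CPM. The rest were closer to level, among them Cald1 at 3184 against 2901 CPM and Myh9 at 738 against 775 CPM. Under the level filter, Actg2, the enteric actin, stood at 21.5 against 8.27 CPM, and the smooth muscle myosin Myh11 went the other way, at 0.954 (0.623 to 1.40) against 2.77 CPM.

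Within the S-score cells Acta2 was at 1668, 1841 and 2412 CPM and Cnn1 at 66.7, 108 and 132 CPM in the order of limit gene share. The over-limit cells were alike in these genes, with 1986 CPM of Acta2 and 104 CPM of Cnn1. After thinning to 5000 UMIs, 78.8% of S-score cells (74.5 to 82.7) and 57.1% of other cells (55.5 to 58.8) held an Acta2 UMI. With scores from 5000 UMIs the log2 ratio of Acta2 was 0.63 and that of Cnn1 0.77.

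The 13 markers that the study followed in these libraries were mostly level. Of 11 compared, Acta2 alone was at least 1.5-fold higher and none was lower, with a median log2 ratio of -0.13. Cxcl12, the main niche chemokine of marrow stroma, was at 669.6 against 519 CPM, and Col1a1 at 865 against 669 CPM. Spp1, osteopontin, was at 5431 against 7039.7 CPM, Pdgfra at 71.5 against 88.9 CPM, Prrx1 at 413 against 489.7 CPM and Ly6a at 138 against 153 CPM. Kitl, stem cell factor, was at 57.9 against 63.2 CPM, Vcam1 at 21.4 against 18.4, Sox9 at 81.2 against 84.6 and Emb at 102 against 112. Acan was low, at 4.73 against 2.19 CPM, and Cdh5, the endothelial cadherin, was counted 3 times in the S-score cells. The S-score cells therefore carried the stromal transcripts of the culture.

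Among niche cytokines, 1 of 17 was at least 1.5-fold higher and 1 lower (5.88% each, beside 3.61% and 1.57% of all compared genes). Ccl2 stood at 40.2 against 25.6 CPM and Il6 at 14.4 against 27.3 CPM. Hgf, a growth factor, was next lowest at 9.80 against 14.6 CPM. Without the shallowest of the 4 depth groups the log2 ratio of Ccl2 was 0.42, short of 1.5-fold, and that of Il6 was -0.98.

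Of 35 matrix genes compared, 1 (2.86%) was at least 1.5-fold higher and 2 (5.71%) lower, beside 3.61% and 1.57% of all compared genes. The median log2 ratio was -0.17. Col1a2 stood at 302 against 166 CPM, more apart than its partner chain Col1a1. Thbs2, a matricellular protein, stood at 88.1 against 144 CPM and the protease Mmp3 at 5.36 against 10.9 CPM. In the cartilage list 1 of 6 compared was higher, Col2a1 at 724 against 457 CPM, while Comp was at 36.3 against 51.4 CPM. At any level, 11 of the 15 cartilage genes with a ratio were above 0. Among those under the filter, Col9a1 was at 6.16 against 2.89 CPM and Ucma at 3.41 against 1.38 CPM. Few cells held these 2 genes at full depth: 7.98% of S-score and 5.04% of other cells for Col9a1, and 4.24% and 2.66% for Ucma. Col2a1 was held by 91.8% and 95.1%. Of the osteoblast markers, Runx2 was at 82.7 against 118 CPM, and none of the 3 compared reached 1.5-fold.

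Among growth-related lists, ribosome biogenesis stood apart from the others. Its genes were at least 1.5-fold higher in 5 of 19, with a median of 0.41 and all 19 above 0, led by the nucleolar proteins Nop56 at 91.8 against 43.5 CPM and Dkc1 at 46.6 against 25.3 CPM. None of 80 ribosomal protein genes, 16 glycolytic genes or 14 immediate early genes reached 1.5-fold in either direction, and their medians were 0.04, 0.13 and -0.18.

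Markers of other cell types were checked. Of the haematopoietic list, Lyz2, lysozyme of myeloid cells, was the 1 gene that passed the level filter, at 47.8 against 6.92 CPM. It came from very few cells: 4 S-score cells (0.998%), 2 other cells and 4 over-limit cells held at least 5 of the 14 markers, and those 4 held 94.0% of the Lyz2 UMIs of the S-score cells. Without them the whole list summed to 9.69 CPM in the S-score cells and 11.6 in the others. With such cells left out before ranking, 301 genes were at least 1.5-fold higher and 145 lower. The endothelial list summed to 11.7 against 11.3 CPM, the Schwann list to 39.4 against 39.3 CPM and the erythroid list to 1.69 against 2.09 CPM. The skeletal muscle list summed to 39.7 against 22.6 CPM, carried by Acta1, skeletal actin, at 26.9 against 12.8 CPM and Tnnt3, a fast troponin, at 12.4 against 9.29 CPM. Of the factors that define muscle cells, Myod1 was at 0.22 CPM and Myog, Pax7 and Myf5 were at 0 counts in the S-score cells (upper limit 0.110 CPM, 3 counts over the group).

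The same score was applied to the primary library, whose cells were much shallower. There 10818 cells were eligible and the top 10% by score, 1082 cells, had a median of 9761 UMIs and only 2 score UMIs. After thinning every cell to 5000 UMIs, 19.9% of eligible cells of both libraries were at or above the cultured cutoff, because 1 UMI then suffices. At least 3 score UMIs were found in 3.59% of cultured cells (3.04 to 4.21) and 0.952% of primary cells (0.778 to 1.15), and at least 5 in 1.75% and 0.25%.

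In the primary cells selected this way the list medians were smaller. Over the genes compared in the cultured library they were 0.52 for licensing and 0.58 for fork genes, and the histone list summed to 247 CPM against 256 in the other primary cells. Single genes could be as far apart as in culture: Pclaf was at 40.4 against 0.543 CPM and Rrm2 at 20.8 against 2.67 CPM. Acta2 was at 130.3 against 124 CPM and Cnn1 at 6.42 against 6.04 CPM. With 1 library of each kind and unlike depths, culture, preparation and sequencing cannot be told apart in this comparison.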

How the data were processed

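Both libraries were prepared from sorted or cultured CDSCs with 10x 3′ chemistry (version 3.1). The authors aligned reads and counted UMIs with Cell Ranger 7.0.0 against a mouse genome, and the deposited matrices hold raw UMI counts per gene and barcode with no normalization. The submitters' notes list GRCm38 (mm10) and also GRCm39. The cultured matrix held 336427977 UMIs, and 6159 of its 10798 barcodes were under 5000 UMIs. Counts were summed per group of cells and divided by the group's UMIs (CPM). Genes of at least 10 CPM over all eligible cells were compared, and a 1.5-fold ratio was counted. Sums carry exact Poisson and shares exact binomial intervals (Clopper-Pearson, 95%). The floor was 3 counts per group. No doublet caller was applied to the main cells. In an alternative, the highest Scrublet scores (8.64% of barcodes) were left out.

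Named genes were all members of the licensing, fork, nucleotide, G1/S, histone and CDK inhibitor lists, the 4 highest and 2 lowest compared genes of other lists, and the 15 highest and lowest with at least 50 CPM. A few others (named over bins or beside these) were chosen after their values were seen. Some genes that the rule names are not reported here. The cells, the 26 lists and the rules were chosen with earlier results of these data known. Alternatives varied the share selected, score genes, limit, depth, cell filters, gene filter and scaling. Coordinates of genes are from GENCODE M21 (GRCm38). The steps were tested on simulated data and used Python 3.11.15, numpy 2.4.6, scipy 1.17.1, pandas 2.3.3 and scanpy 1.11.5.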

Additional observations from a re-analysis of the deposited data

How the results depend on the processing

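No paired analysis was possible because each condition had 1 library and no test was run. The main counts were 303 genes at least 1.5-fold higher and 132 lower in the S-score cells, and 99 list genes past that fold in either direction. With the top 5% by score they were 485 and 305, and with the top 20% they were 200 and 45. With no G2/M limit the counts were 688, 391 and 163. With score and limit from 5000 UMIs per cell they were 207 and 30, and 206 of 400 cells (51.5%) were also S-score cells of the main selection. Centring on the median left 82 lower genes. A minimum of 1 CPM gave 797, 471 and 215, and a minimum of 50 CPM gave 63, 43 and 27. At 2-fold the counts were 118 and 7. Scoring by Mcm3, Mcm5 and Mcm6 gave 323 and 113 genes, and by the other 6 genes 293 and 129, with 79.1% and 86.0% of the S-score cells in common. Leaving out high doublet scores gave 307 and 187. Chosen after seeing the data, leaving out cells with 5 haematopoietic markers gave 301 and 145, leaving out the shallowest of 4 depth groups gave 290 and 124, and a minimum of 10 CPM in the other cells gave 266, 132 and 81.

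With the 10 CPM minimum kept, licensing genes numbered 7 to 10 higher, fork genes 14 to 21 and nucleotide genes 9 to 17 over the alternatives, and none was lower, while CDK inhibitor and p53 genes numbered 0 to 4 lower and 0 to 2 higher. Unthinned, 12.3% of primary cells were at or above the cutoff in place of 19.9%, and 83.3% of S-score cells held a Pcna UMI in place of 32.4%. Depth limits shares and low genes: 1 UMI reaches the cutoff in a cell of 5000 UMIs, and genes under 10 CPM rest on few counts.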

Other observations

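Recombination and Fanconi anaemia genes were mostly under 10 CPM and were read from their counts, and the genes named here were chosen after their values were seen. Of the 35 checkpoint and recombination genes, 34 were above 0 on the log2 scale at any level. Exo1, an exonuclease of DNA end resection, was at 17.4 CPM (15.8 to 19.0) in the S-score cells and 0.366 (0.296 to 0.447) in the other eligible cells. Brca1, a recombination factor, was at 28.5 CPM (26.5 to 30.6) against 1.29 and at 38.2 CPM in the over-limit cells. These ratios were wider than those of most fork genes of higher level, and the genes would not have been counted in either direction under the level filter.

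Damage sensors of the same list were closer to level. Atr, the replication stress kinase, had a log2 ratio of 0.52, its partner Atrip 0.12, and the clamp subunits Hus1 and Rad1 0.25 and 0.23.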
